A study of Mus musculus with 6 samples.

Results

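The xenobiotic metabolism enzymes of the intestinal epithelium were followed in single nuclei of mouse jejunal organoids. The genes were chosen by symbol, as cytochromes P450 of families 2 to 4, glutathione transferases of the alpha, mu, pi, theta and kappa classes, UDP-glucuronosyltransferases, sulfotransferases and flavin monooxygenases, and each had to reach 50 UMIs (unique molecular identifiers, counted transcripts) over all nuclei. Of 31319 genes in the matrices, 129 matched the symbol rule and 82 reached the threshold. They were 41 cytochromes P450, 18 glutathione transferases, 9 UDP-glucuronosyltransferases, 10 sulfotransferases and 4 flavin monooxygenases, with 491474 UMIs together, 0.359% of all. Total UMIs chose the genes, and from Sult5a1 (53 UMIs), Fmo2 (54) and Cyp2d10 (61) just inside to Cyp4f39 (49), Cyp4f18 (45) and Sult2a8 (44) just outside there was no gap.

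Organoids are epithelial cultures grown from intestinal crypts, here from the jejunum of C57BL/6 mice aged 8 to 12 weeks. They grew in the conditioned medium of quiescent fibroblasts (QCM) or of senescent ones (SCM), with 3 samples per medium. Per the methods of the study, the fibroblasts were mouse embryonic fibroblasts, made quiescent by low serum or senescent by X-rays or doxorubicin, and their concentrated medium was mixed with organoid growth medium in both groups. The comparison asks what the factors released by senescent fibroblasts do to the epithelium. The labels do not say which way of inducing senescence was used for which SCM sample, or that replicates came from separate mice, so that p-values measure the spread between these samples only. Cultures of this kind hold no stroma, and the fibroblast and immune markers summed to at most 5.37 and 2.91 CPM (UMIs scaled to a sample total of 1000000), with the markers Col1a1, Col1a2, Col3a1 and Pdgfra and all 4 immune markers at 0 in at least 1 sample.

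These enzymes clear drugs, dietary compounds, bile acids and steroids. Cytochromes P450 and flavin monooxygenases oxidize their substrates, the first with electrons that pass through the reductase Por. The transferases then attach glutathione, glucuronic acid or sulfate, and transporters such as Abcb1a and Abcg2 export the products. In the small intestine the absorptive enterocytes are the main site of this first-pass metabolism, and the nuclear receptors Nr1i2 (PXR) and Ahr and the antioxidant factor Nfe2l2 (NRF2) are known to induce many of the genes. Tandem duplication has placed many of them in arrays of close paralogs.

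The samples differed in ways that touch all of the results. They held between 4071926 UMIs in 430 nuclei (SCM replicate 1) and 41035733 UMIs in 3791 nuclei (QCM replicate 1), and the median per nucleus was 8260 UMIs in QCM replicate 1 and between 1578 and 3156.5 in the others. SCM replicate 1 shared 175 cell barcodes (40.7% of its nuclei) with QCM replicate 1, and these nuclei held 49.9% of its UMIs, whereas other pairs of samples shared at most 36. Of the shared barcodes, 22.9% carried the same cluster number in both samples, where 14.2% would by the cluster sizes alone. From which sample these nuclei came cannot be told from the counts, so that each value of SCM replicate 1 rests in part on nuclei of uncertain origin, and counts without them are given below. Cluster 1 took 43.2% of the nuclei of QCM replicate 1, and cluster 4 took 36.5% of those of SCM replicate 1. The ribosomal protein share of UMIs was 14.2%, 4.96% and 10.4% in the QCM samples and 4.22%, 2.64% and 7.30% in the SCM samples, in the order of replicates 1, 2 and 3. It counts genes whose symbol is Rpl or Rps followed by a digit. This rule also matches pseudogenes and Rps6k kinase genes, and it misses the Rplp and Rpsa genes. The 11 enterocyte markers summed to 5750 CPM in QCM replicate 1 and to between 683 and 2872 CPM in the others. That library was also highest for the 6 Paneth markers, at 2633 CPM against 335 to 630.0 CPM, and for the 7 goblet markers, at 1329 CPM against 384 to 776 CPM. In these summed counts, fewer cells of a type and less RNA per cell cannot be told apart.

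The regions around the start sites of some of the genes are shown first. RefSeq promoters on GRCm38.p6 (250 bases before to 50 bases after a start) were matched to 72 of the 82 genes. Each stretch is written 5′ to 3′ in the direction of the gene, with matches to any of 5 motifs, searched on both strands, in capitals. The motifs were the hepatocyte nuclear factor 4 (HNF4) site core CAAAGTCCA, the HNF1 motif, the GATA motif TGATAA, the antioxidant response element core TGACNNNGC and the dioxin response core GCGTG, and no matches overlapped in the sequences shown. The first 3 genes are Cyp2c and Cyp3a genes whose promoter held the HNF4 core.
Cyp2c65, chr19:39060756-39061055, plus strand: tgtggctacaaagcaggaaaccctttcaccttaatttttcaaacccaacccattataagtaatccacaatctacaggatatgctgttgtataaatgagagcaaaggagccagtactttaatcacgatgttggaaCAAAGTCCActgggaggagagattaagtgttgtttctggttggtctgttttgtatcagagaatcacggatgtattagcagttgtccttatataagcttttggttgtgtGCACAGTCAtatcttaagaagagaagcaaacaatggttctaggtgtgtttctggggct
Cyp2c70, chr19:40187237-40187536, minus strand: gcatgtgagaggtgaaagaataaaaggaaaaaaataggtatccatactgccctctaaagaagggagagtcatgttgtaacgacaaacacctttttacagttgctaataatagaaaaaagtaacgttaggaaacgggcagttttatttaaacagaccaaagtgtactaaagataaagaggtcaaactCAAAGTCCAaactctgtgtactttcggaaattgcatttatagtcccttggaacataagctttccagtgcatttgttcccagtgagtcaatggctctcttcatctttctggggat
Cyp3a11, chr5:145879805-145880104, minus strand: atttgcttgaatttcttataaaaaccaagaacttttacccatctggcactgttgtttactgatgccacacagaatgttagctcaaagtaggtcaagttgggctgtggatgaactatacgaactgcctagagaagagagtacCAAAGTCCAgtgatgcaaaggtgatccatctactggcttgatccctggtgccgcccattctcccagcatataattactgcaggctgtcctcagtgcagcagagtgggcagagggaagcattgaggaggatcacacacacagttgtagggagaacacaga
The next 3 are Cyp2c29 and Fmo5, with their highest level in the enterocyte-like cluster, and Cyp4b1, with its highest in the enteroendocrine-like clusters.
Cyp2c29, chr19:39286835-39287134, plus strand: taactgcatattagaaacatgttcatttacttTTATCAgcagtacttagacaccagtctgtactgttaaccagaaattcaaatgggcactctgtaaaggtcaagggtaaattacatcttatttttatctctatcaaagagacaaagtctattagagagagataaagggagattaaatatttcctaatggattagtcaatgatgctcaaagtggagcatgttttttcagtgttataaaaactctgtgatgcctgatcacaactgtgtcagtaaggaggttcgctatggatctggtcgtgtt
Fmo5, chr3:97628769-97629068, plus strand: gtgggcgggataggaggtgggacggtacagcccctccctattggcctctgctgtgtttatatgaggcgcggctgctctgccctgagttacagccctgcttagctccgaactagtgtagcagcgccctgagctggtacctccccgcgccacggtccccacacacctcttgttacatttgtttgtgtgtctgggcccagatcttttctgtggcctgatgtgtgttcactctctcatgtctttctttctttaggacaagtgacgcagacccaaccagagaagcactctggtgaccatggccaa
Cyp4b1, chr4:115647672-115647971, minus strand: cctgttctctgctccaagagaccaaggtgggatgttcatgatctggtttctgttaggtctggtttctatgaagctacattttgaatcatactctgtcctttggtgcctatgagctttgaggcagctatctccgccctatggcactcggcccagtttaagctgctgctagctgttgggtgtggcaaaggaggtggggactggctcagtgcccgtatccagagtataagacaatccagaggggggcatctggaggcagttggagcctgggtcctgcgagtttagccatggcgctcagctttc
The last is Gstm1, the enzyme gene with the smallest p between the media, at the more upstream of its 2 listed starts.
Gstm1, chr3:108017924-108018223, minus strand: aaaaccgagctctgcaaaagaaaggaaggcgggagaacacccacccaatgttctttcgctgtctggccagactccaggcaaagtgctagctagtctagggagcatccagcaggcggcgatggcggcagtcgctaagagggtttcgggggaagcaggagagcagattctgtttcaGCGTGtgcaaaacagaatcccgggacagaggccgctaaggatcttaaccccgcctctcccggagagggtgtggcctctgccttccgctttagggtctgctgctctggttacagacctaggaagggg

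The HNF4 core was found in the promoters of 7 of the 72 genes (Cyp2c40, Cyp2c65, Cyp2c67, Cyp2c68, Cyp2c70, Cyp3a11 and Sult1b1). It lay in 8.14% of the 86 windows of enzyme genes and in 0.475% of all 32851 windows. Cyp2c40, Cyp2c67 and Cyp2c68 are close paralogs and do not count as separate cases. The HNF1 motif was found in Cyp4a32, Cyp4f40, Sult1d1 and Ugt1a1, in 4.65% of the windows against 0.399% of all. The GATA motif was found in 18 genes, with 20.9% of windows against 9.05%. These genes include Cyp2c29, Cyp2c37, Cyp2c38, Cyp2c40, Cyp2c67 and Cyp2c68 of the Cyp2c array, so that they are not all separate cases either. The antioxidant core (7 genes, 8.14% against 12.4%) and the dioxin core (18 genes, 23.3% against 32.4%) were in a smaller share of these windows than of all windows. In Gstm5 a dioxin core lay inside the antioxidant core. A match describes the letters in this window only and is not a binding site.

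For the comparison of the media, UMIs were summed per sample and tested with the edgeR quasi-likelihood test. No enzyme gene was called at an adjusted p of 0.05, and none of the 19046 genes tested was called (0.0%), with a smallest adjusted p of 0.927. Low counts kept Cyp2d10, Fmo2 and Sult5a1 out, so that 79 enzyme genes were tested. Their adjusted p-values lay between 0.927 and 0.999. Of these genes, 14 had an unadjusted p under 0.05 (4.55% of all genes did), and 13 of the 14 were lower in SCM, where 3.08% of all genes were at that level and lower and 1.46% at that level and higher. DESeq2 and voom with limma also called no enzyme gene, with 18 and 5 genes at an unadjusted p under 0.05, and DESeq2 called 21 of all genes. The estimate was lower in SCM for 62 of the 79 genes, where 51.4% of all genes were lower. The median log2 ratio of SCM to QCM was -0.47 over the enzyme genes and -0.01 over all genes.

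This lean toward lower values was smaller without 1 library. Of the 82 genes, 42 had their highest CPM in QCM replicate 1 (51.2%, where 15.9% of 19714 genes with 50 or more UMIs did), and 17 were at least 3-fold above the median of the other samples there (20.7% against 2.55%). When QCM replicate 1 was left out, 55 of 80 genes were lower, the median was -0.16 and no gene was at an unadjusted p under 0.05. Leaving out QCM replicate 2 gave 30 genes at that level, leaving out SCM replicate 1 gave 4, and leaving out SCM replicate 2 gave 2. The share of all genes at that level moved the same way, to 11.8%, 2.15% and 0.813%, and it was 1.54% without QCM replicate 1. When the ribosomal protein share entered the fit as a covariate, 39 of 79 were lower, the median was 0.02 and 1 gene was at that level. Without SCM replicate 1, 65 of 80 were lower with a median of -0.49, and without the shared barcodes, 62 of 79 with a median of -0.52.

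**Figure D1:**
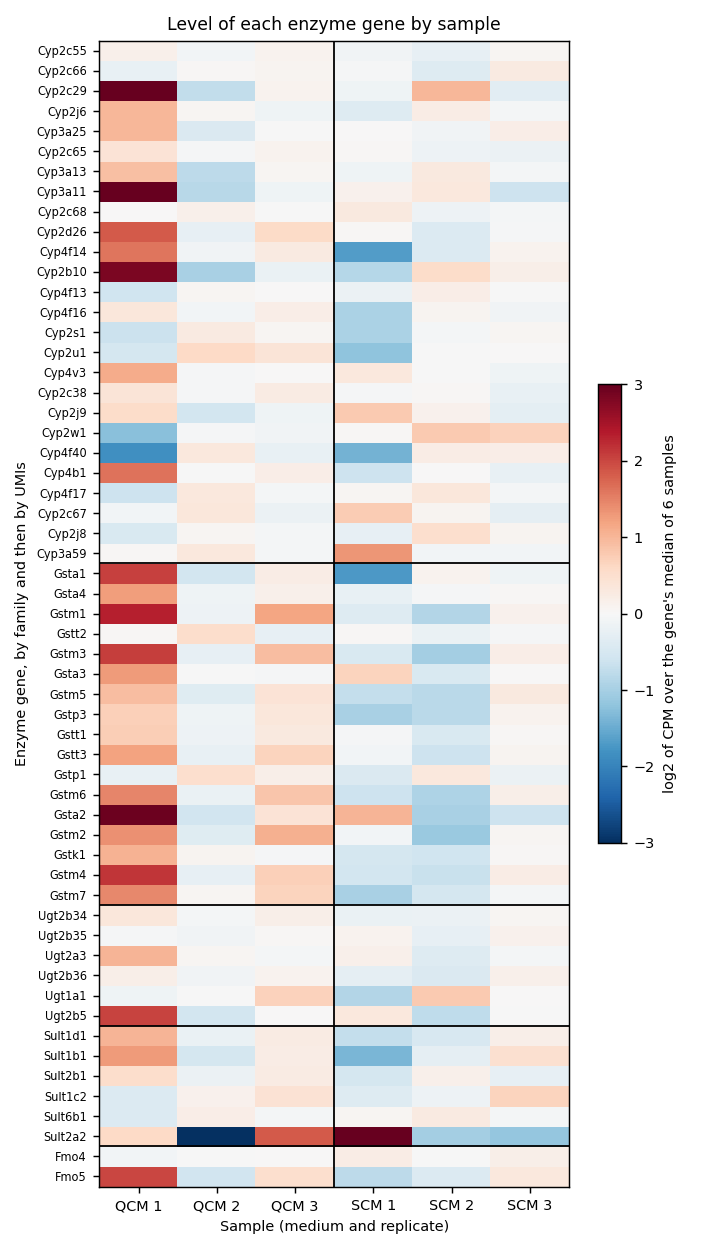
Level of the 57 enzyme genes with 500 or more UMIs in each sample, as the log2 of the CPM over the gene's median of the 6 samples (color, with the scale ending at 3 in either direction). Rows are genes by family, and columns are QCM and SCM replicates. QCM replicate 1 is red for Cyp2c29, Cyp3a11, Cyp2b10 and the Gsta and Gstm genes, and Sult2a2 is highest in SCM replicate 1. The minimum of 500 UMIs favors genes high in QCM replicate 1. That library gave 928 of 1159 UMIs of Gsta2, 392 of 607 of Gstm4 and 268 of 507 of Gstm7, which passed only through it. The same held, among others, for Cyp4b1 (672 of 1167) and Gstk1 (330 of 676).

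Among the cytochromes P450, 29 of 40 tested genes had a lower estimate in SCM, with a median log2 ratio of -0.41, and none was called. Leaving out QCM replicate 1 gave 24 of 40 lower with a median of -0.07, and the ribosomal covariate gave 19 of 40 lower with a median of 0.03. The most counted were members of the Cyp2c array of chromosome 19, whose enzymes oxidize drugs and fatty acids. Cyp2c55 was at 524, 448 and 505 CPM in QCM replicates 1, 2 and 3 and at 437, 400.1 and 494 CPM in SCM replicates 1, 2 and 3. Cyp2c66 was at 281, 334 and 347 CPM in QCM and at 319.8, 249 and 391 CPM in SCM. Both genes overlapped between the media, and their fitted log2 ratios were -0.32 ± 0.23 and -0.15 ± 0.23 (SE).

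Cyp2c29 had a different pattern, with 473 CPM in QCM replicate 1 and 22.9 and 41.2 CPM in QCM replicates 2 and 3, against 34.9, 75.9 and 30.7 CPM in SCM. A single sample was 13.6-fold above the median of the other 5. That sample gave 19420 of the 23337 UMIs of Cyp2c29, the count by which the gene was named. The log2 ratio of Cyp2c29 was -2.26 ± 1.12 (SE), and 0.51 without QCM replicate 1. Cyp3a11, a main inducible P450 of mouse liver and gut, was named after its values were seen because it had the same shape, at 335, 13.8 and 22.4 CPM in QCM and 26.8, 30.7 and 16.1 CPM in SCM. Its log2 ratio was -2.69 ± 1.18 (SE), and 0.37 without QCM replicate 1. Cyp2b10, the classical target of the receptor CAR, was at 101, 7.29 and 12.3 CPM in QCM and 7.86, 20.9 and 16.2 CPM in SCM, with a log2 ratio of -1.71 ± 0.99 (SE) and 0.60 without QCM replicate 1. In all 3 genes, the other 5 samples overlapped between the media.

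Cyp2d26, of the Cyp2d array on chromosome 15, was at 169, 40.2 and 70.0 CPM in QCM and 48.1, 35.5 and 46.5 CPM in SCM. The groups overlapped through QCM replicate 2, and the log2 ratio was -1.36 ± 0.55 (SE). It was -0.40 without QCM replicate 1. Cyp2c37 was low in every sample, at 1.75, 0.535 and 0.954 CPM in QCM and 0.491, 0.481 and 0.373 CPM in SCM. These levels rest on 72, 13 and 19 UMIs in QCM and on 2, 10 and 10 UMIs in SCM, and the groups are set apart by 0.535 CPM in QCM replicate 2 against 0.491 CPM in SCM replicate 1. The log2 ratio was -1.54 ± 0.63 (SE), and -0.79 without QCM replicate 1.

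Cyp2w1, a P450 known from fetal gut and from colon tumors, was the single enzyme gene with an unadjusted p under 0.05 that was higher in SCM. It was at 4.53, 10.4 and 10.0 CPM in QCM and at 11.1, 18.4 and 17.2 CPM in SCM. In CPM all 3 SCM samples lay above all 3 QCM samples, though SCM replicate 1, on 45 UMIs, lay close to QCM replicate 2. The TMM scaling factors of the fit were 1.09 for SCM replicate 1 and 0.982 for QCM replicate 3. With CPM divided by these factors, SCM replicate 1 lies slightly below QCM replicate 3. The 9 fetal markers summed to 116, 63.7 and 89.6 CPM in QCM and to 258, 680.2 and 186 CPM in SCM, without overlap. Of them, Gja1 and Spp1 were at 0 in at least 1 sample. Within QCM their sum was highest in replicate 1, where Cyp2w1 was lowest. The pooled level of Cyp2w1 was highest in cluster 5, at 18.0 CPM. It was 8.28 CPM in fetal-like cluster 7 and 11.2 CPM over all nuclei. The part of the fetal markers in the result was not tested. The log2 ratio of Cyp2w1 was 0.80 ± 0.32 (SE, edgeR adjusted p = 0.927). It was between 0.59 and 1.00 when each sample was left out in turn, and the unadjusted p rose above 0.05 without QCM replicate 1, SCM replicate 2 or SCM replicate 3. Among all genes tested, 4.99% did not overlap in CPM with SCM higher and 2.09% with QCM higher. Of the 82 enzyme genes, Cyp2w1 did so with SCM higher, and Cyp2c37, Gstm7 and Gstp2 did so with QCM higher.

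All 18 glutathione transferases had a lower estimate in SCM (51.4% of all genes did), with a median log2 ratio of -1.02. Of them, 9 had an unadjusted p under 0.05 (4.55% of all genes did). These enzymes couple glutathione to reactive compounds. Without QCM replicate 1 the median was -0.47, with 17 of 18 lower and 0 at an unadjusted p under 0.05. With the ribosomal covariate it was -0.06, with 10 of 18 lower. The 18 genes include neighboring paralogs and are not independent of each other.

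The mu class lies in 1 array on chromosome 3, with 7 members between positions 107895821 and 108044894 of GRCm38. In the order of the chromosome the fitted log2 ratios were -0.92 for Gstm5, -1.46 for Gstm7, -1.43 for Gstm6, -1.80 for Gstm3, -1.39 for Gstm2, -2.01 for Gstm1 and -1.70 for Gstm4. Gstm5 stands on the plus strand and the others on the minus strand. Gstm1 was at 255, 46.0 and 116 CPM in QCM and at 39.0, 27.8 and 56.0 CPM in SCM. Gstm3 was at 164, 32.8 and 73.3 CPM in QCM and at 28.0, 19.0 and 44.6 CPM in SCM. In both genes the order within QCM was replicate 1, 3 and 2, and SCM replicate 3 lay above QCM replicate 2. The same order of QCM samples was seen for Gstm6, at 17.7, 5.64 and 11.5 CPM in QCM and 4.17, 3.42 and 7.24 CPM in SCM, and for Gstm2, at 12.8, 3.83 and 10.3 CPM in QCM and 4.67, 2.26 and 5.15 CPM in SCM. QCM replicate 2 lay below SCM replicate 3 in Gstm6 and below SCM replicates 1 and 3 in Gstm2. The ribosomal protein shares ranked the samples of both media together in the same order as Gstm1, Gstm3 and Gstm6. For Gstm2 the order was the same within each medium but not over both together. With these shares as a covariate, the median log2 ratio of the 18 glutathione transferases was -0.06. The part of these shares in the result was not tested beyond the covariate.

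Gstm7 was at 6.53, 2.51 and 3.81 CPM in QCM and at 1.23, 1.68 and 2.31 CPM in SCM, with no overlap. Its closest samples, QCM replicate 2 and SCM replicate 3, rest on 61 and 62 UMIs, and SCM replicate 1 on 5. The edgeR p-values were 0.0153 for Gstm1, 0.0226 for Gstm7, 0.0241 for Gstm3, 0.0294 for Gstm6 and 0.0391 for Gstm2, with an adjusted p of 0.927 in each. Leaving out QCM replicate 1 gave log2 ratios of -1.02 for Gstm1, -0.83 for Gstm3, -0.84 for Gstm7, -0.80 for Gstm6 and -0.87 for Gstm2. Gstp2, of the pi class, was at 2.70, 3.42 and 2.36 CPM in QCM and 0.982, 1.88 and 1.83 CPM in SCM. Its groups did not overlap and QCM replicate 1 was not its highest sample, with a log2 ratio of -0.94 ± 0.39 (SE) and -0.85 without QCM replicate 1. The closest samples of Gstp2, QCM replicate 3 and SCM replicate 2, rest on 47 and 39 UMIs, and SCM replicate 1 on 4.

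Gsta1 and Gsta4, of the alpha class, were the most counted glutathione transferases. Gsta1 was at 820.1, 135 and 229 CPM in QCM and at 59.7, 214 and 180.4 CPM in SCM. Gsta4, whose enzyme detoxifies the lipid peroxidation product hydroxynonenal, was at 294, 114 and 138 CPM in QCM and at 106, 121 and 127 CPM in SCM. Both were highest in QCM replicate 1 and overlapped otherwise, with log2 ratios of -1.65 ± 0.78 (SE) and -0.85 ± 0.42 (SE). Without that library they were -0.29 and -0.13.

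Reads from the 3′ end can be hard to assign among paralogs. In the last 500 bases of the longest coding transcript, windows of 91 bases also found in another gene's transcript made up 100% for Ugt1a1, Ugt1a2 and Ugt1a5, which share their last exons. The share was 77.8% for Gstp2, 77.6% for Gsta1 and 33.4% for Sult2a2. The values of these genes are uncertain as values of single genes. The last 500 bases of Cyp2c29 held no such window.

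The UDP-glucuronosyltransferases attach glucuronic acid, and their summed level lay between 234.2 and 328 CPM in the samples. Ugt2b34 was at 174, 132 and 154 CPM in QCM and 119, 120.1 and 141 CPM in SCM. Ugt2b35 was at 72.8, 69.0 and 75.7 CPM in QCM and 79.3, 63.1 and 81.5 CPM in SCM. Both overlapped between the media. Ugt2a3 was at 34.7, 17.6 and 16.4 CPM in QCM and 18.9, 12.99 and 16.3 CPM in SCM, and again only QCM replicate 1 stood apart. Of 9 genes tested, 7 had a lower estimate in SCM, 0 had an unadjusted p under 0.05, and the median log2 ratio was -0.23. Leaving out QCM replicate 1 gave 5 of 9 lower with a median of -0.13.

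Of 9 sulfotransferases tested, 5 had a lower estimate in SCM, with a median of -0.02 and 0 at an unadjusted p under 0.05. Leaving out QCM replicate 1 gave 6 of 9 lower with a median of -0.07, and leaving out SCM replicate 1 gave 5 of 9 with -0.17. The ribosomal covariate gave 4 of 9 lower with a median of 0.04. Sult1d1, which sulfates catecholamines, was at 52.0, 22.2 and 30.4 CPM in QCM and 15.7, 18.3 and 29.1 CPM in SCM. Sult1b1, which sulfates thyroid hormones and small phenols, was at 47.6, 13.6 and 23.1 CPM in QCM and 7.61, 16.3 and 27.6 CPM in SCM. Sult2b1, a sulfotransferase of cholesterol and related sterols, was at 17.2, 10.7 and 14.2 CPM in QCM and 8.35, 13.3 and 10.1 CPM in SCM. All 3 genes were highest in QCM replicate 1 and overlapped between the media. Sult2a2, of the hydroxysteroid class, was at 5.56, 0.329 and 13.2 CPM in QCM and 32.7, 1.83 and 1.64 CPM in SCM. It was high in SCM replicate 1 and QCM replicate 3, the 2 samples with the largest share of nuclei in cluster 4 (36.5% and 12.4%). Its log2 ratio was 0.60 ± 1.37 (SE), and -2.03 without SCM replicate 1.

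The flavin monooxygenases were low. Fmo4 was at 12.4, 12.9 and 13.2 CPM in QCM and 15.2, 12.9 and 14.8 CPM in SCM. Fmo5 was at 21.9, 3.66 and 7.78 CPM in QCM and 3.19, 4.14 and 6.79 CPM in SCM. Fmo1 was at 1.19, 2.96 and 4.87 CPM in QCM and 1.96, 2.65 and 3.54 CPM in SCM. All overlapped between the media, and the log2 ratios were -0.01 ± 0.20 for Fmo4, -1.46 ± 0.70 for Fmo5 and -0.20 ± 0.50 for Fmo1 (SE). Fmo5 was 5.30-fold above the median of the other samples in QCM replicate 1, and its log2 ratio was -0.28 without that library and 0.43 with the ribosomal covariate.

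Summed over each family, QCM replicate 1 was the highest sample in all 5. The P450 sum was 2237 ± 817 CPM in QCM and 1719.7 ± 98.8 CPM in SCM (SD, n = 3). The glutathione transferase sum was 1078 ± 714 CPM in QCM and 532 ± 85.05 CPM in SCM, the UDP-glucuronosyltransferase sum 289 ± 37.6 and 252 ± 22.6 CPM, the sulfotransferase sum 106 ± 34.4 and 85.5 ± 11.4 CPM, and the flavin monooxygenase sum 27.5 ± 8.04 and 22.1 ± 2.85 CPM. In each family the means lay closer together than 1 SD of the QCM samples. With every sample given the same mix of the 9 clusters that held 10 or more nuclei in each, the glutathione transferase sum was 1064 ± 654 CPM in QCM and 565 ± 60.5 CPM in SCM. The gap narrowed more for the P450 sum, at 2161 ± 728 and 1844 ± 72.5 CPM, and for the sulfotransferase sum, at 104 ± 29.9 and 93.2 ± 13.03 CPM. The UDP-glucuronosyltransferase sum was 291 ± 31.8 and 263 ± 14.3 CPM and the flavin monooxygenase sum 26.0 ± 6.70 and 22.1 ± 2.66 CPM.

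**Figure D2:**
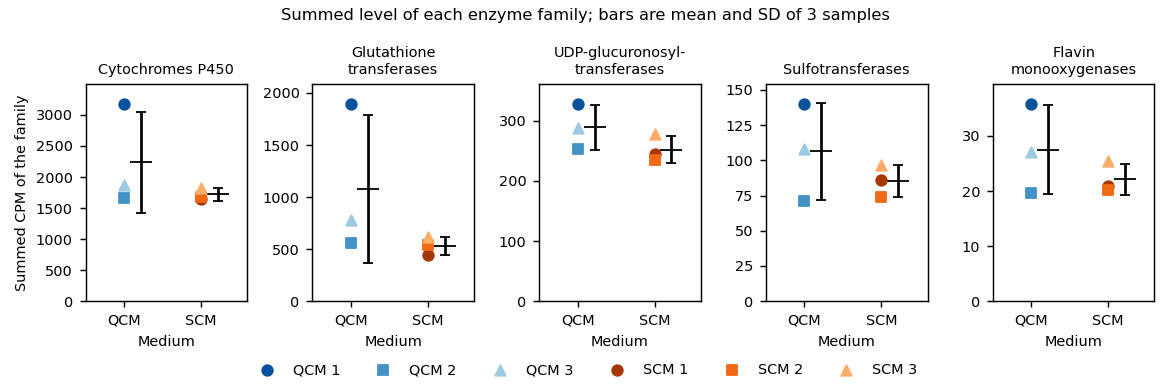
Summed CPM of each enzyme family (vertical axes, each from 0) in the QCM and SCM samples (points), with the mean and SD of 3 samples per medium (bars). The point of QCM replicate 1 is highest in every panel, at 3174 CPM for the cytochromes P450 and 1893 CPM for the glutathione transferases.

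The enzyme genes were next described across the 15 deposited clusters, which carry numbers only. Clusters were made from the same nuclei and genes, so the levels are a description without a test. By fixed marker lists, cluster 8 was enterocyte-like (8 of 11 enterocyte markers at least 2-fold above the other nuclei), although Fmo5 and Cyp2j11 were among its own 10 leading genes. Cluster 6 was goblet-like (6 of 7 goblet markers), with 3 Paneth markers raised as well. Cluster 7 was fetal-like, cluster 11 was tuft-like, and enteroendocrine markers led clusters 9 and 10. Cluster 1 also had 7 of the 11 enterocyte markers raised, together with 3 Paneth markers, and each type had 1 marker among its 10 leading genes, so that it was given no name and cluster 8 is not the only cluster rich in enterocyte markers. It took 13.7% and 21.9% of the nuclei of QCM replicates 2 and 3 and 16.1% to 21.0% in SCM. The remaining clusters were not named.

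Cluster 8 held the highest pooled CPM of 35 of the 82 genes, and of 42 without QCM replicate 1. It held 1416 nuclei, and its P450 sum was 6249 CPM, with between 1529 and 2576 CPM in the other 14 clusters. The flavin monooxygenase sum was 131 CPM against 13.6 to 34.5 CPM. Of the 57 genes with 500 or more UMIs, 30 were higher in cluster 8 than in the remaining nuclei of its sample in 6 of 6 samples, where 9.83% of 12709 genes with as many UMIs were. By family these were 20 of 26 cytochromes P450, 4 of 17 glutathione transferases, 2 of 6 UDP-glucuronosyltransferases, 3 of 6 sulfotransferases and 1 of 2 flavin monooxygenases.

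Fmo5, whose enzyme oxidizes carbonyl compounds, had the largest median ratio of cluster 8 to the remaining nuclei among the 57 genes with 500 or more UMIs. Cyp2j11, with 191 UMIs in all and none in SCM replicate 1, had a median ratio of 22.2 over the other 5 samples. It was named outside the naming rules. Fmo5 was at 151, 62.2 and 60.2 CPM in cluster 8 of QCM replicates 1, 2 and 3 and at 41.4, 50.3 and 81.3 CPM in the SCM replicates, and at 12.7, 1.54 and 4.78 CPM and 2.02, 2.73 and 2.87 CPM in their remaining nuclei. The ratio of Fmo5 was between 11.9 and 40.5 with a median of 19.5. Cyp3a25 was at 1127, 449.7 and 549 CPM in cluster 8 in QCM and at 654, 847 and 712 CPM in SCM, with ratios between 5.99 and 9.83. The ratio of Cyp3a25 varied less among samples than that of any other gene named here with a ratio above 5.

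Cyp2c29 was at 1454, 267 and 366 CPM in cluster 8 in QCM and at 290.0, 1311 and 240.1 CPM in SCM. In the other nuclei it was at 403, 14.04 and 22.6 CPM in QCM and at 27.1, 38.1 and 19.6 CPM in SCM. The ratio was therefore 3.61 in QCM replicate 1 and between 10.7 and 34.4 in the other samples. Cyp2b10 had a ratio of 2.98 in QCM replicate 1 and 6.06 to 27.6 elsewhere, and Cyp3a11 2.36 and 6.57 to 24.7. The high level in QCM replicate 1 was spread over its clusters. Cyp2c29 was at 269 to 551 CPM in clusters 0 to 7 of that library and at 421 CPM in tuft-like cluster 11, where the other samples with 10 nuclei had 10.2 to 45.1 CPM. The summed enterocyte markers were spread in the same library as well, at 5278 CPM in cluster 11, where the others had 719 to 2732 CPM. The part of RNA from other cells in these levels was not tested.

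Cyp2c38 had a median ratio of 5.35 and Cyp3a13 of 5.05, both higher in 6 of 6 samples. Cyp3a13 was also raised in fetal-like cluster 7, where it was at 387, 126 and 495 CPM in QCM and at 469, 252 and 160.5 CPM in SCM, 1.604 to 5.56 times the level in the other nuclei. The most counted gene of each family was less uneven. Cluster 8 had a median ratio of 2.05 for Cyp2c55, 1.55 for Gsta1, 1.47 for Ugt2b34, 2.20 for Sult1d1 and 2.25 for Fmo4. Gsta1 was below the other nuclei in cluster 8 of QCM replicate 1, and Fmo4 in SCM replicate 1, which had 11 nuclei there.

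**Figure D3:**
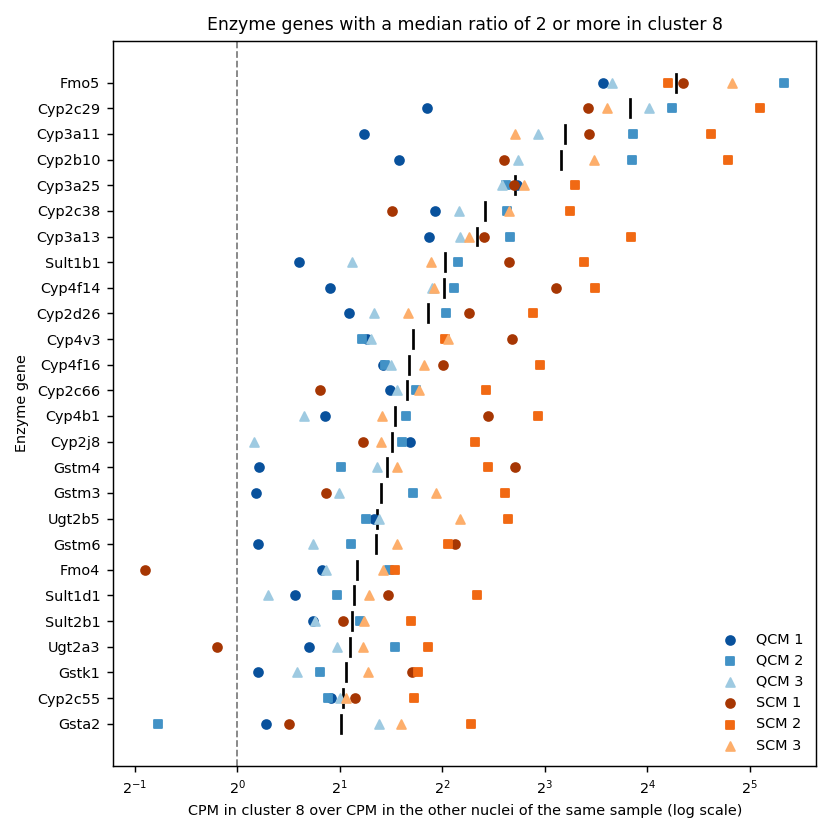
CPM in cluster 8 over CPM in the remaining nuclei of that sample (horizontal axis, log scale) for the 26 enzyme genes with 500 or more UMIs and a median ratio of at least 2. Points are samples, the black line is the median and the dashed line marks equal levels. Fmo5 leads with a median of 19.5, and QCM replicate 1 is the lowest point for Cyp2c29, Cyp3a11 and Cyp2b10.

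Some genes had their highest pooled level elsewhere. Cyp4b1, a P450 of fatty acids and plant toxins, was highest in the enteroendocrine-like clusters. In cluster 9 it was at 37.9, 57.4 and 32.8 CPM in QCM and at 46.6 and 42.4 CPM in SCM replicates 2 and 3, 2.37 to 15.4 times the other nuclei, and in cluster 10 the ratio was 3.23 to 11.95. Gstt1, of the theta class, was highest in cluster 10, at 96.9, 108.6 and 64.0 CPM in QCM and 45.0 and 31.3 CPM in SCM, against 8.81 to 20.9 CPM in the other nuclei of these samples. All 5 samples with enough nuclei were higher in both cases. These values rest on 6 to 39 UMIs per sample, and in cluster 10 the 3 QCM samples had more Gstt1 than the 2 SCM samples.

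The glutathione transferases Gsta1 and Gstm1 were highest in cluster 1 among pooled nuclei, where QCM replicate 1 gave 14100192 of the cluster's 25999616 UMIs. With samples weighted alike both were highest in cluster 8, Gsta1 at 502 CPM against 373 CPM in cluster 1 and Gstm1 at 128 CPM against 124 CPM. Within samples the ratio of cluster 1 to the other nuclei was 1.30 to 1.69 for Gsta1 and 1.31 to 1.79 for Gstm1, higher in 6 of 6 samples. Sult2a2 was highest in cluster 4, at 26.2 CPM, where it was at 97.6 CPM in SCM replicate 1 and 36.3 CPM in QCM replicate 3 and between 2.17 and 15.7 CPM in the others. It was above the samples' own mean in cluster 1 of SCM replicate 1 as well, at 86.5 CPM on 14 UMIs. The highest pooled level of Cyp2c70, 8.94 CPM in cluster 13, rests on 2 UMIs in QCM replicate 1 and 2 in SCM replicate 3.

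**Figure D4:**
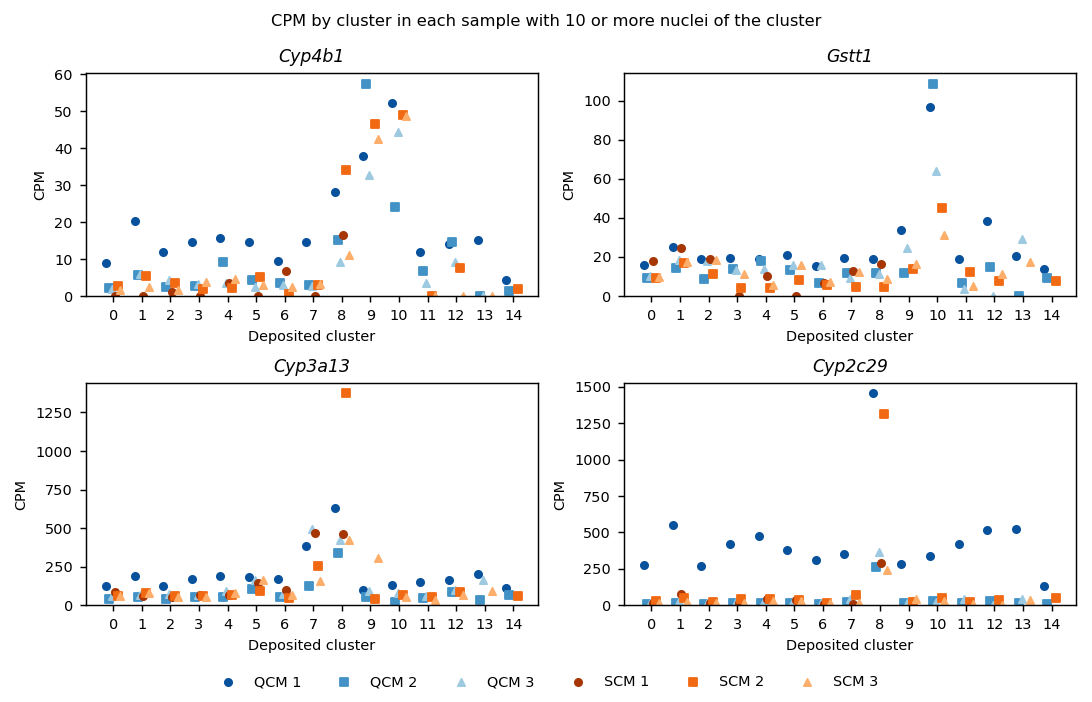
CPM of Cyp4b1, Gstt1, Cyp3a13 and Cyp2c29 (vertical axes, from 0) in each deposited cluster, with a point for each sample that had 10 or more nuclei of the cluster. Cyp4b1 peaks in clusters 9 and 10, Gstt1 in cluster 10 and Cyp3a13 in clusters 7 and 8, and Cyp2c29 in QCM replicate 1 is high in every cluster.

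The media were then compared within clusters, at a fixed cluster rather than over the mix of clusters. Enterocyte markers differed between samples in every fitted cluster, with QCM replicate 1 highest in each, and the part of RNA from other cells in the level within a cluster was not tested. With edgeR, 13 clusters could be fitted, and 0 of 520 pairs of an enzyme gene and a cluster were called, as were 0 of 130109 pairs over all genes (0.0%). At an unadjusted p under 0.05 there were 104 enzyme pairs, against 5.76% of all pairs, and 2 of the 104 were higher in SCM (Cyp2w1 in clusters 0 and 1). DESeq2 called 1 enzyme pair, Gstm1 in cluster 7, of 39 pairs in all, with 90 enzyme pairs at an unadjusted p under 0.05. The number of enzyme pairs at that level was 26 without QCM replicate 1, 211 without QCM replicate 2 and 36 without SCM replicate 2, which left 9 clusters. Of all pairs, 2.08%, 12.5% and 1.53% were at that level in these fits, so that the background moved with the enzyme genes. In fetal-like cluster 7, 16 of 37 enzyme genes were at that level, where 11.9% of all genes were, with a median log2 ratio of -0.92. The summed enterocyte markers in cluster 7 were at 4661, 1328 and 2344 CPM in QCM and at 417, 872 and 1290 CPM in SCM, lower in SCM without overlap, and their part in the result was not tested.

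Gstm3 was lower in SCM in all 13 clusters and had an unadjusted p under 0.05 in 12, and Gstm1 was lower in all 13 and had it in 10. The median log2 ratio over the clusters was -1.76 for Gstm3 and -1.87 for Gstm1. In cluster 7 Gstm1 was at 225, 42.0 and 92.1 CPM in QCM and at 39.0, 22.9 and 33.0 CPM in SCM. The groups are set apart there by 42.0 CPM in QCM replicate 2 against 39.0 CPM in SCM replicate 1. The latter held 17 nuclei and 153653 UMIs in cluster 7, with 8 nuclei left without the shared barcodes. The share of all genes without overlap in this cluster is not given. Cyp2w1 was higher in SCM in all 8 clusters in which it was tested, with log2 ratios between 0.70 and 1.45 and 2 unadjusted p-values under 0.05. Clusters of 1 sample share its medium and its handling and are not replicates.

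Cluster 8 differed from the others in direction. There 29 of 47 enzyme genes had a higher estimate in SCM, with a median of 0.15 and 0 at an unadjusted p under 0.05, where 3.16% of all genes were. In the other 12 clusters the medians were between -1.11 and -0.28. By family, 18 of 23 cytochromes P450 and 4 of 4 sulfotransferases were higher in SCM in cluster 8, and 9 of 12 glutathione transferases were lower. Sult1b1 had a log2 ratio of 0.74 ± 0.35 (SE) there, the smallest unadjusted p of the 47 genes. The P450 sum in cluster 8 was 7441, 4375 and 4750 CPM in QCM and 4208, 9206 and 5047 CPM in SCM, so that QCM replicate 1 and SCM replicate 2 stood above the rest. The summed enterocyte markers there were at 9059, 4719 and 5525 CPM in QCM and at 2303, 7970 and 5236 CPM in SCM, with the same 2 samples highest, and their part in the result was not tested. Without SCM replicate 2 the direction turned, with 18 of 50 genes higher and a median of -0.17. The difference between cluster 8 and the other clusters was not tested.

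**Figure D5:**
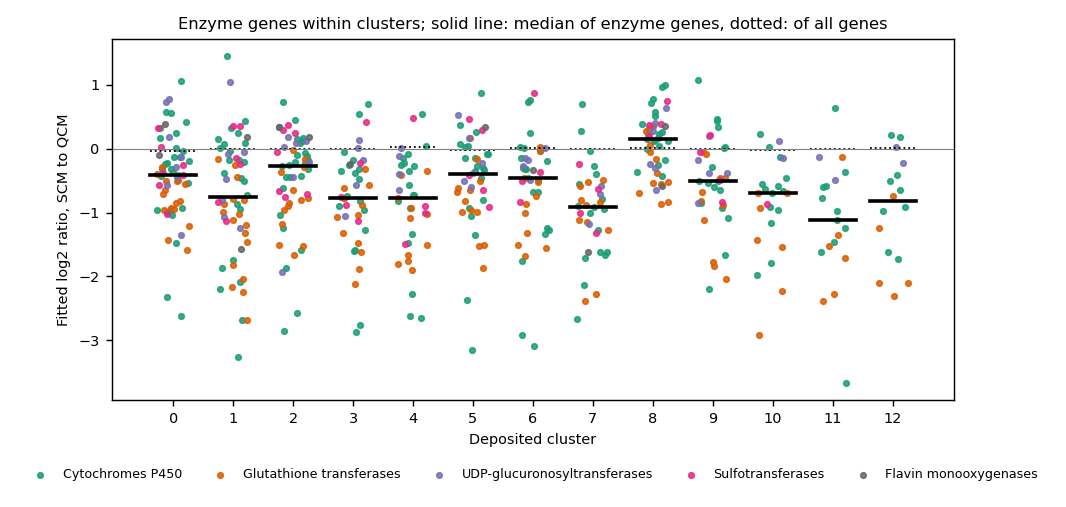
Fitted log2 ratio of SCM to QCM (vertical axis) of each enzyme gene tested in each of the 13 fitted clusters (horizontal axis). Points are genes colored by family, the solid line is the median of the enzyme genes and the dotted line that of all genes. The median of the enzyme genes is below 0 in 12 clusters and at 0.15 in cluster 8.

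Genes that work with these enzymes were read from the same whole-sample fit, from lists fixed with the enzyme genes. None was called. Of 20 regulators, 8 had a higher and 12 a lower estimate in SCM, with a median log2 ratio of -0.04 and 0 at an unadjusted p under 0.05. Nr1i2 was at 51.3, 89.3 and 83.2 CPM in QCM and 79.3, 89.3 and 94.5 CPM in SCM. The log2 ratios were 0.10 ± 0.19 for Nr1i2, 0.07 ± 0.19 for Ahr, 0.04 ± 0.18 for Nfe2l2 and -0.10 ± 0.24 for Hnf4a (SE), all smaller than their SE.

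Of 16 cofactor enzymes, 14 were lower in SCM with a median of -0.19, and Cyb5a and Slc35b2 had an unadjusted p under 0.05. Without QCM replicate 1, 8 of 16 were lower with a median of -0.04, and neither gene was at that level. With the ribosomal covariate 6 of 16 were lower, the median was 0.04 and 0 were at that level. Cyb5a, an electron donor of cytochromes P450, was at 536, 287 and 321 CPM in QCM and 188, 209 and 276 CPM in SCM, without overlap, with a log2 ratio of -0.97 ± 0.36 (SE). Por had a log2 ratio of -0.41 ± 0.23 (SE), Ugdh, which makes the glucuronic acid donor, -0.47 ± 0.28 (SE), Papss2, which makes the sulfate donor, -0.08 ± 0.26 (SE), and Gclc, the first enzyme of glutathione synthesis, 0.40 ± 0.27 (SE).

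Of 26 other detoxifying enzymes tested, 23 were lower in SCM with a median of -0.85, and 9 had an unadjusted p under 0.05, all lower, where 51.4% of all genes were lower and 3.08% were at that level and lower. All 9 were highest in QCM replicate 1, as were 19 of the 26. When that library was left out, 18 of 26 were lower with a median of -0.32 and 3 at that level, and with the ribosomal covariate 15 were lower with a median of -0.06 and 1 at that level. The 9 were the carboxylesterases Ces1f, Ces2a and Ces2e, the membrane-bound transferases Mgst1, Mgst2 and Mgst3, and Adh1, Aldh1b1 and Cbr1. Ces2a was at 638, 290.5 and 356 CPM in QCM and 111, 201 and 233 CPM in SCM. All QCM samples lay above all SCM samples, with a log2 ratio of -1.45 ± 0.45 (SE). Nqo1, a target of Nfe2l2, was at 40.9, 25.0 and 25.7 CPM in QCM and 29.2, 15.8 and 20.1 CPM in SCM, with a log2 ratio of -0.72 ± 0.34 (SE).

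Of 9 efflux transporters, 6 had a higher estimate in SCM, with a median of 0.13. Abcc4, which exports conjugates and cyclic nucleotides, was at 41.8, 52.7 and 47.9 CPM in QCM and 94.1, 97.9 and 62.5 CPM in SCM, without overlap, with a log2 ratio of 0.67 ± 0.19 (SE, edgeR adjusted p = 0.927). It was 0.70 without QCM replicate 1, and 0.54 with the ribosomal covariate, where no transporter was at an unadjusted p under 0.05. The pooled level of Abcc4 was highest in fetal-like cluster 7, and it was 30.7 CPM in cluster 8 and 58.8 CPM over all nuclei. The summed fetal markers were also higher in every SCM sample than in any QCM sample. Within QCM they were highest in replicate 1, where Abcc4 was lowest. The part of the fetal markers in the result was not tested. Abcb1a had a log2 ratio of -0.15 ± 0.20 (SE) and Abcg2 of -0.30 ± 0.19 (SE).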

How the data were processed

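Nuclei of 6 organoid samples, 3 per medium, were sequenced with 3′ droplet chemistry. The authors counted reads with CellRanger on mm10, and the submitters' processing notes name Cell Ranger 2.1.1. Per the study's methods, nuclei with outlying mitochondrial share, total or number of features were removed and clusters were made after integration with Harmony. Doublet removal is not stated, and no caller was run here. The deposited count matrices hold UMI counts per gene and nucleus (unit: counts), and the deposited table of nuclei gives the cluster number. Genes were named and placed with GENCODE M21 on GRCm38.

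Counts of all 38154 nuclei were added up within each sample, and within each cluster of a sample where it had 10 or more nuclei in at least 2 samples per medium, and scaled to CPM. Media were compared with the edgeR 4.0.16 quasi-likelihood test (filterByExpr with a minimum count of 10, TMM, Benjamini-Hochberg adjustment over all genes of a fit, threshold 0.05) in R 4.3.3. The SE given with an edgeR log2 ratio was the absolute ratio divided by the square root of the quasi-likelihood F statistic. DESeq2 1.42.0 and limma 3.58.1 were alternatives. The scripts were tested on simulated data. The other alternatives were library size alone, no filter on low counts, a replicate block, each sample left out, replicates 2 and 3 alone, the ribosomal protein share as a covariate, a minimum of 30 nuclei, and, chosen after seeing the data, the shared barcodes of replicates 1 left out. Sample totals were 4071926 to 41035733 UMIs, so that values were least precise in SCM replicate 1. Clusters 13 and 14 had too few nuclei to be fitted.

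The genes, lists, motifs and tests were chosen with earlier results of these data known. Named genes were the 3 members with the most UMIs per family, the 8 with the smallest p, members without overlap, the 10 members (200 or more UMIs) with the largest ratio of highest cluster to pooled level, and set partner genes with those at an unadjusted p under 0.05 added after their values were seen. Cyp3a11 and Cyp2j11 were added outside these rules. A cluster was called by a type when at least 3 markers were at least 2-fold above the other nuclei at 5 CPM or more and markers of another type did not outnumber its own among the 10 leading genes, and was given no name where 2 types with at least 3 markers were level there. Proliferation and mitochondrial genes were not analysed here.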

Additional observations from a re-analysis of the deposited data

How the results depend on the processing

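No enzyme gene was called in whole samples under any of the 14 alternatives, and the count of enzyme genes with a lower estimate in SCM stayed within 1.5 times of 62 under 13 of them. With the ribosomal covariate, 39 were lower, and Cyp2b10 (1.22), Cyp2c29 (1.24), Cyp2c55 (0.028), Cyp2c66 (0.047), Cyp2c70 (0.045), Cyp2d26 (0.14), Cyp3a13 (0.71), Cyp3a25 (0.53), Fmo4 (0.17), Fmo5 (0.43), Gsta1 (0.19), Gsta4 (0.12), Gstt1 (0.045), Sult1b1 (0.45), Sult1d1 (0.044) and Ugt2b35 (0.16) turned to a higher estimate (log2 ratio of SCM to QCM). With replicates 2 and 3 alone, Cyp2b10 (0.86), Cyp2c29 (0.66), Cyp3a13 (0.38), Cyp3a25 (0.21), Fmo4 (0.046), Gsta1 (0.059), Sult1b1 (0.22) and Sult2a2 (-2.04) turned. With voom and limma, Fmo1 (0.13), Fmo4 (0.064) and Sult2a2 (-0.32) turned, with library size alone Fmo4 (0.15) and Ugt2b35 (0.040), and without the shared barcodes Fmo4 (0.13). When each sample was left out in turn, the log2 ratio ran from -2.22 to 0.60 for Cyp2b10, -2.79 to 0.51 for Cyp2c29, -0.38 to 0.0072 for Cyp2c66, -0.76 to 0.31 for Cyp3a13, -0.83 to 0.20 for Cyp3a25, -0.52 to 0.31 for Fmo1, -0.087 to 0.087 for Fmo4, -2.03 to 1.49 for Sult2a2 and -0.25 to 0.0024 for Ugt2b35.

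DESeq2 called 21 genes in whole samples. Within clusters, the pairs of gene and cluster called were 5 with library size alone, 39 with DESeq2 (1 enzyme pair), 3135 with no filter on low counts (91 enzyme pairs), and 0 to 32 when each sample was left out, with 32 without QCM replicate 2. With TMM-scaled library sizes the summed UDP-glucuronosyltransferase level was -72.1 CPM for SCM minus QCM. The cause of these changes was not tested. The replicate numbers were not taken to pair the samples in the main fits. The deviations of samples with the same number correlated at 0.304, 0.511 and -0.0683 for replicates 1, 2 and 3. Samples with different numbers correlated at -0.465 to 0.0901. For replicates 1 and 2 the same number gave the best match, and QCM replicate 3 correlated best with SCM replicate 1. With 3 samples per medium these values cannot decide whether the samples were paired. With the replicate block, 0 genes were called in whole samples, and within clusters 248 pairs were called, 4 of them of enzyme genes. Depth limits SCM replicate 1 most, with 11 nuclei in cluster 8.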
